A study of Mus musculus with 9 samples.

Results

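Cytosolic sensors of RNA and DNA were described as 10 genes, chosen by symbol in the deposited expression table, which held 24346 genes. They were the RNA helicases Ddx58 (RIG-I), Ifih1 (MDA5) and Dhx58 (LGP2), the adaptor Mavs, the sensors or binders of double-stranded nucleic acid Zbp1, Eif2ak2 (PKR), Adar and Tlr3, and the DNA-sensing pair Mb21d1 (cGAS) and Tmem173 (STING). All 10 symbols were found, and all 10 passed the filter on low values in each comparison below. Tlr3 sits mainly in endosomes rather than the cytosol, and Mavs and Tmem173 pass signals on from the sensors.

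In virus-infected cells, RIG-I and MDA5 bind foreign or misplaced RNA and signal through MAVS on the mitochondrial surface, while cGAS binds DNA and makes a cyclic dinucleotide that activates STING. Both routes activate the transcription factor IRF3 and lead to type I interferon. Interferon then signals through JAK1 and TYK2 to a transcription factor complex that holds STAT2 and IRF9 and acts on the interferon-stimulated response element, and several of the sensors are themselves known interferon-stimulated genes. Tumour cells can also set off these pathways with their own nucleic acids.

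RNA sequencing was done on tumour-derived mammary cell lines, of strain FVB/N and with an MMTV-neu transgene, the neu (Erbb2) oncogene under the mammary-directed promoter of mouse mammary tumour virus. There were 4 Jak1 knockout libraries, of lines 45555, 47298, 45566B and 46295, and 5 Jak1 wild-type libraries, of lines 45555, 47298, 45566B, 33373 and 33377, and values are given below in that order of lines. Lines 45555, 47298 and 45566B were present in both states (titled Cre and Wt), 1 library each, and were treated with puromycin, per the labels. Nothing in the labels says that libraries came from repeated cultures, so p-values measure only the spread between these libraries. Cell lines of 1 tumour each stand for a genotype here, no interferon treatment or infection is labelled, and the sources used here do not give the animals' ages. In such bulk RNA, fewer cells that express a gene and less RNA per cell cannot be told apart.

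Values are FPKM, a measure corrected for the length of the transcript and the size of the library, so levels can be set side by side between genes. Depth relative to the deepest library lay between 0.416 and 1, and the absolute number of fragments is unknown. Jak1 stood at 74.4, 27.5, 14.2 and 22.97 FPKM in knockout libraries, against 86.7, 63.1, 16.1, 19.4 and 54.6 FPKM in wild-type libraries, and a value for the whole gene does not resolve a deleted part. The columns of 33373 and 33377 are named without the suffix of the other 7 columns, the sources used here do not give whether they were processed apart, and the counts that include them are also given without them. The cultures differed in cell state: Epcam, an epithelial adhesion molecule, was at 0.423, 0.581, 681 and 524 FPKM in knockout libraries, against 0.169, 0.324, 720.1, 419.8 and 2.36 FPKM in wild-type libraries. Cell state also differed between the knockout and wild-type cultures of 47298, which Epcam does not show. Col1a1, a collagen gene, was at 65.5 FPKM in 47298 knockout against 1728 FPKM in wild type. It was at 1675 against 1879 FPKM in 45555 and 0.409 against 0.271 FPKM in 45566B. Luminal epithelial markers summed to 414 FPKM in 47298 knockout against 99.8 FPKM in wild type. These sums were 7.34 against 7.12 FPKM in 45555 and 2839 against 2761 FPKM in 45566B. Leukocytes also express these sensors. The 8 measured leukocyte markers summed to 1.27 to 106 FPKM in knockout and 0.772 to 20.1 FPKM in wild-type libraries, the highest being Cd68 (106 FPKM in 46295 knockout), a lysosomal protein not limited to leukocytes. Of the 8, 6 were below 1 FPKM in every library, Ptprc was at most 0.0293 FPKM and Cd3e was listed at 0 in all 9 libraries.

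Promoter sequence is shown for 4 of the genes because 3 of them hold the core of the interferon-stimulated response element. The fourth, Mavs, is 1 of the searched genes that do not. RefSeq windows on GRCm38.p6 (the mm10 build of the files), running from 250 bases before to 50 bases after a gene's start, were used for 7 of the 10 genes, in 9 windows. Dhx58, Zbp1 and Tmem173 were not searched. The core searched was GAAANNGAAA on both strands. It was found in the windows of Ddx58, Ifih1 and Eif2ak2, and in 3.44% of all 32851 windows of this length. By gene, 3.99% of 27025 genes had it in at least 1 window. The match began 2, 32 and 18 bases downstream of the first transcribed base in Ddx58, Ifih1 and Eif2ak2. The STAT element TTCNNNGAA, searched the same way, was in windows of Eif2ak2 and Adar and in 8.30% of all windows (9.55% of genes). Its matches did not overlap those of the first motif. A match is a description of letters and not a measured binding site. The sequences below run 5′ to 3′ on the gene's strand, with the GAAANNGAAA match in capitals.
Ddx58 promoter, chr4:40239776-40240075, minus strand: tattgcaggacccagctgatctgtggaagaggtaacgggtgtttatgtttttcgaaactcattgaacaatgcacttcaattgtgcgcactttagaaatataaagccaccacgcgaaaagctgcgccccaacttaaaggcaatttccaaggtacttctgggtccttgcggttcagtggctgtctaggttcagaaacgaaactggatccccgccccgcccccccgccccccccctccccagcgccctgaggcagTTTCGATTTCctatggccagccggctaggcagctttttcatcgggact
Ifih1 promoter, chr2:62646206-62646505, minus strand: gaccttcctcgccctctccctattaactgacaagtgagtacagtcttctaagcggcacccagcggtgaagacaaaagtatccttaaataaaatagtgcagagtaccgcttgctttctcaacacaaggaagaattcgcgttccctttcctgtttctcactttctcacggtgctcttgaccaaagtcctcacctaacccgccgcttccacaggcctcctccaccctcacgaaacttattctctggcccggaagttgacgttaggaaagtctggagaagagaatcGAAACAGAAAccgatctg
Eif2ak2 promoter, chr17:78882523-78882822, minus strand: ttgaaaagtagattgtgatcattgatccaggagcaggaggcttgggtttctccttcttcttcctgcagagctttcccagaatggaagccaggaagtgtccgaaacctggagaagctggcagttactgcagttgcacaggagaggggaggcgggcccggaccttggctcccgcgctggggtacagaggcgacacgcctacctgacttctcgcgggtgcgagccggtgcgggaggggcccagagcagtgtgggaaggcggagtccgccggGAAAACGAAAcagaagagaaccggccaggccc
Mavs promoter, chr2:131233813-131234112, plus strand: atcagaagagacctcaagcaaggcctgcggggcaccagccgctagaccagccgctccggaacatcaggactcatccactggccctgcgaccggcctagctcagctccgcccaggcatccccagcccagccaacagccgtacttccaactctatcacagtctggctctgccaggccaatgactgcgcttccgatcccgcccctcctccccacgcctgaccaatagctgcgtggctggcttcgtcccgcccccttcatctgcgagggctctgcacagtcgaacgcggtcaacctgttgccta

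Positions of the genes are from GENCODE vM21 on GRCm38, and all 10 are protein coding. Ddx58 lies on chromosome 4 from 40203773 to 40239828, Ifih1 on chromosome 2 from 62595798 to 62646255, Dhx58 on chromosome 11 from 100694884 to 100704271 and Mavs on chromosome 2 from 131234063 to 131248025. Zbp1 lies on chromosome 2 from 173206612 to 173218923, Eif2ak2 on chromosome 17 from 78852564 to 78882573, Adar on chromosome 3 from 89715022 to 89753446 and Tlr3 on chromosome 8 from 45395665 to 45411080. Mb21d1, annotated there as Cgas, lies on chromosome 9 from 78430526 to 78443237 and Tmem173 on chromosome 18 from 35733679 to 35740554. Exons of Dhx58, Eif2ak2, Tlr3, Mb21d1 and Adar overlap exons of annotated genes on the opposite strand, and the sources used here do not give the strandedness of the libraries, so reads there cannot be told apart.

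Among the RNA helicases, Ddx58 and Dhx58 were lower in the knockout library of each of the 3 lines, and Ifih1 in 2 of the 3. Ddx58, the sensor of RNA with a 5′ triphosphate, was at 3.36, 8.82, 9.60 and 11.99 FPKM in knockout libraries, against 11.6, 16.6, 53.1, 29.2 and 44.3 FPKM in wild-type libraries. Within a line the knockout held 29.1% (45555), 53.1% (47298) and 18.1% (45566B) of the wild-type level. The groups met at their edges only, where 46295 knockout lay just above 45555 wild type. Dhx58, a helicase without the signalling domain of the other RNA helicases, was at 0.711, 2.26, 2.83 and 3.01 FPKM in knockout libraries, against 3.61, 6.74, 46.6, 31.3 and 30.01 FPKM in wild-type libraries. Every one of the 4 knockout values was under the lowest of the 5 wild-type values, and Dhx58 was the only one of the 10 genes for which that held. The knockout level was 19.7% (45555), 33.5% (47298) and 6.07% (45566B) of the wild-type level of the same line.

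Ifih1, the sensor of long double-stranded RNA, was at 0.945, 6.18, 7.10 and 5.28 FPKM in knockout libraries, against 2.37, 4.76, 22.6, 14.6 and 19.9 FPKM in wild-type libraries. It was lower in the knockout of 45555 and 45566B but not of 47298, where the knockout held 130% of the wild-type level (6.18 against 4.76 FPKM). The 3 high values were the wild-type libraries 45566B, 33373 and 33377, and the wild-type libraries of 45555 and 47298 lay among the knockout libraries. Mavs, the adaptor downstream of both RNA sensors, was nearly level, at 14.99, 25.9, 14.6 and 16.4 FPKM in knockout libraries, against 16.4, 18.3, 15.4, 15.1 and 14.4 FPKM in wild-type libraries. Its highest and lowest libraries differed 1.80-fold, the narrowest range of the 10 genes, and the highest was 47298 knockout.

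**Figure D1:**
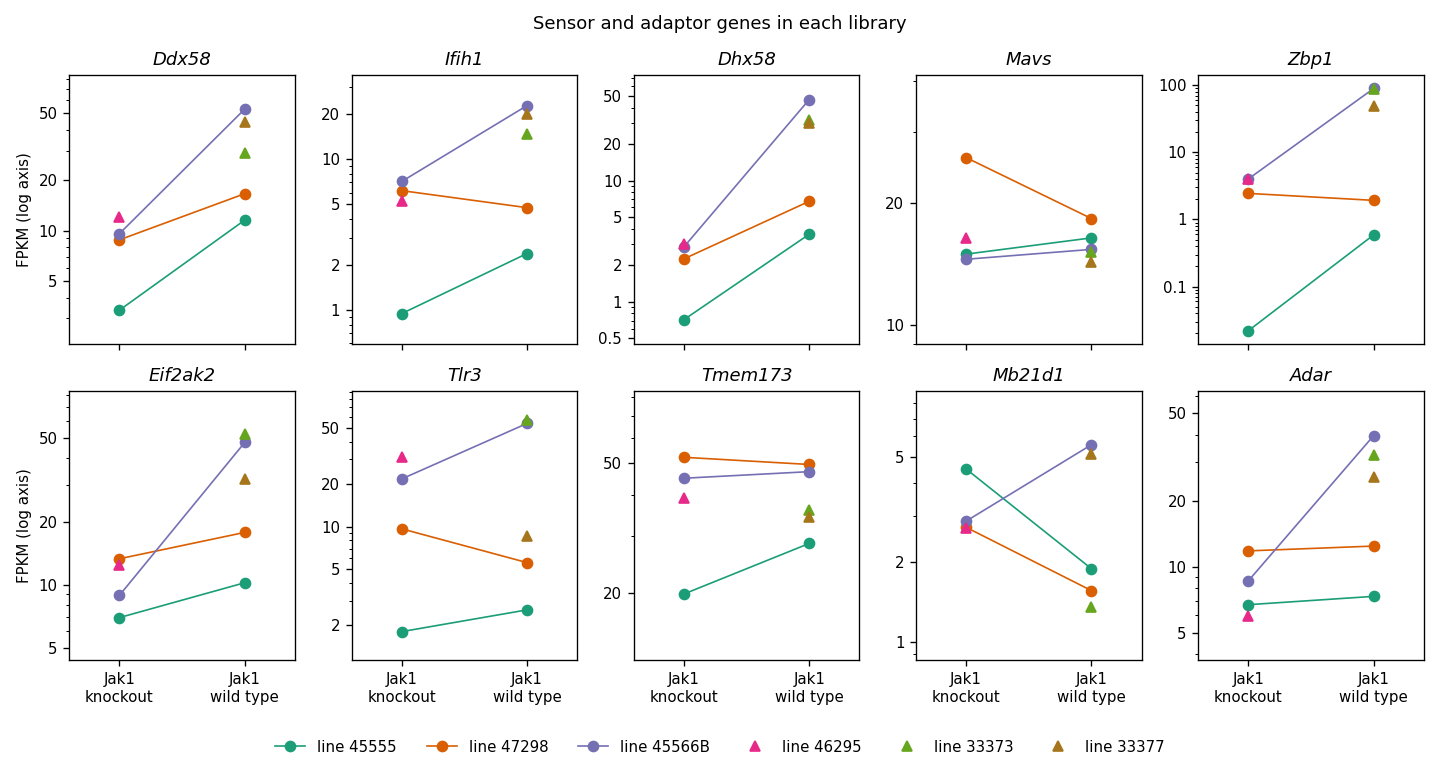
FPKM (log axis, scaled per gene) of the 10 genes in each library, with Jak1 knockout on the left and Jak1 wild type on the right; lines join the libraries of 1 cell line and triangles are lines present in 1 state only. For Zbp1 the knockout libraries sit between 0.0220 and 4.02 FPKM and the wild-type libraries between 0.589 and 89.4 FPKM, while for Mavs all 9 libraries sit between 14.4 and 25.9 FPKM.

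Of the genes whose products bind double-stranded nucleic acid, Zbp1 had the widest range. Zbp1, a sensor of left-handed nucleic acid that can start necroptosis, was at 0.0220, 2.45, 4.02 and 3.96 FPKM in knockout libraries, against 0.589, 1.93, 89.4, 86.7 and 48.97 FPKM in wild-type libraries. It was high in 3 wild-type libraries (45566B, 33373 and 33377) and below 5 FPKM in the other 6, whatever their state, and in 47298 the knockout lay above the wild type. In 45566B the knockout held 4.49% of the wild-type level. The 45555 ratio rests on values under 1 FPKM.

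Eif2ak2, the kinase that stops translation on binding double-stranded RNA, was at 6.98, 13.3, 8.91 and 12.4 FPKM in knockout libraries, against 10.2, 17.8, 47.7, 52.4 and 31.9 FPKM in wild-type libraries. The knockout was lower in each line, at 68.2% (45555), 74.9% (47298) and 18.7% (45566B) of wild type, and the groups overlapped through 45555 wild type. Adar, which edits adenosines in double-stranded RNA and so keeps cellular RNA from the sensors, was at 6.71, 11.8, 8.62 and 5.97 FPKM in knockout libraries, against 7.32, 12.4, 39.6, 32.2 and 25.6 FPKM in wild-type libraries. The difference was small in 45555 and 47298, where the knockout held 91.6% and 95.1% of the wild-type level, and large in 45566B, where it held 21.8%. A value per gene cannot separate the long interferon-inducible Adar transcript from the constitutive one.

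Tlr3, the endosomal receptor for double-stranded RNA, was at 1.81, 9.67, 21.8 and 31.4 FPKM in knockout libraries, against 2.58, 5.58, 53.9, 57.4 and 8.59 FPKM in wild-type libraries. The 4 highest libraries were 45566B and 33373 wild type and 46295 and 45566B knockout, which are also the 4 libraries with the highest Epcam, and 33377 wild type, which was high for Zbp1 and Ddx58, was low for Tlr3. Within lines the knockout was lower in 45555 and 45566B and higher in 47298. The part of cell state in these Tlr3 levels was not tested.

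The DNA-sensing pair was not lower in the knockout of every line, which also held for Ifih1, Zbp1, Mavs and Tlr3. Tmem173, the adaptor STING, was at 19.9, 52.2, 45.1 and 39.2 FPKM in knockout libraries, against 28.4, 49.7, 47.2, 36.1 and 34.2 FPKM in wild-type libraries. The groups overlapped throughout, with means of 39.1 ± 13.9 FPKM in knockout (SD, n = 4) and 39.1 ± 9.01 FPKM in wild type (SD, n = 5), and its mean over the 9 libraries was the highest of the 10 genes, above that of 90.2% of all genes. Mb21d1, the DNA sensor cGAS, was at 4.51, 2.71, 2.86 and 2.69 FPKM in knockout libraries, against 1.89, 1.56, 5.57, 1.36 and 5.14 FPKM in wild-type libraries. The knockout was higher in 45555 and 47298, at 239% and 174% of wild type, and lower in 45566B, at 51.3%. Its mean over the 9 libraries, 3.14 FPKM, was the lowest of the 10 genes.

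**Figure D2:**
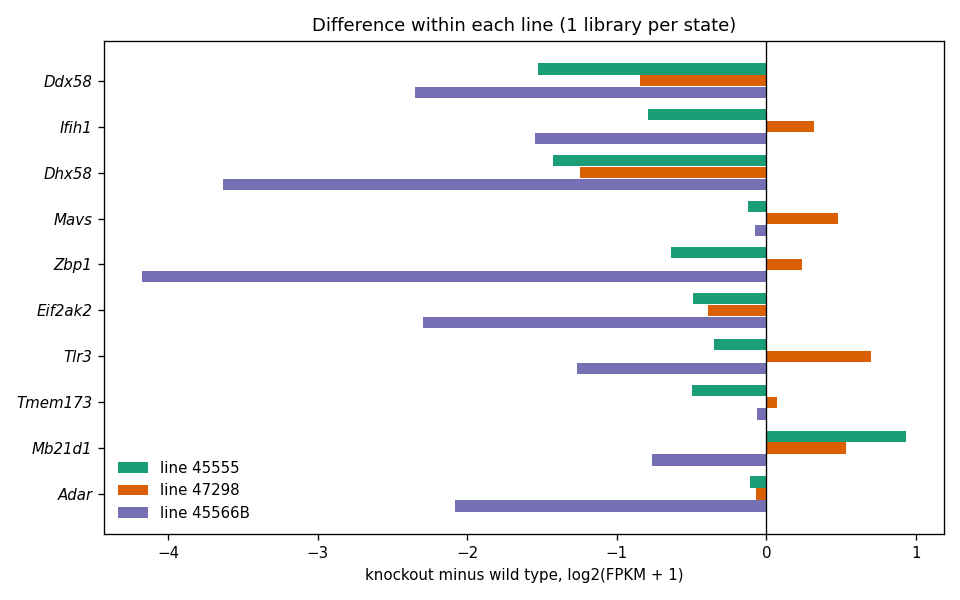
Difference between the knockout and the wild-type library of lines 45555, 47298 and 45566B for each gene, on the log2(FPKM + 1) scale; each bar is 1 library minus 1 library, so there is no error. Line 45566B has the longest bar below 0 for 8 of the 10 genes (45555 has it for Mavs and Tmem173), while 6 of the 10 bars of line 47298 lie above 0.

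The 3 lines thus gave different pictures of the same genes. On the log2(FPKM + 1) scale the knockout of 45566B was lower for all 10 genes, by at least 1 log2 unit for 7 of them, with a median difference of -1.81. Of all 12063 genes tested, 2.17% were lower by that much in this line, 0.854% were higher and the median difference was 0.01. In 45555, 9 of the 10 were lower, 2 of them by at least 1 log2 unit (6.68% of all genes; 3.2% were higher by that much), with a median of -0.49 against -0.03 for all genes. In 47298, 4 were lower and 6 higher, 1 lower by at least 1 log2 unit (11.0% of all genes; 8.49% were higher by that much), with a median of 0.15 against 0.01 for all genes. The wild-type level from which these differences start also varied, from 0.589 to 89.4 FPKM for Zbp1 and from 3.61 to 46.6 FPKM for Dhx58, with 45566B the highest of the 3 paired lines for both. How these lines came to differ was not tested. In 47298 the knockout and wild-type cultures also differed in cell state, and its part in the differences of that line was not tested.

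The 3 lines were also fitted together with limma on log2(FPKM + 1), with the line as a block. The question is what differs with the Jak1 label inside a line. The block does not remove a difference in cell state between the cultures of a line, as in 47298. The knockout was lower for 8 of the 10 genes and higher for 2, against 51.4% lower and 48.6% higher of all genes. No gene was called at an adjusted p under 0.05, 0% of the 12063 tested in either direction, and so none of the 10. At an unadjusted p under 0.05 there were 2 of the 10, both lower (1.86% of all genes were lower and 1.51% higher at that threshold). These were Ddx58, with a log2 fold change of -1.57 (SE 0.34, 95% interval -2.49 to -0.65, limma adjusted p = 0.762), and Dhx58, with -2.10 (SE 0.56, interval -3.64 to -0.57, limma adjusted p = 0.762). Without the line block, 0 of the 10 had an unadjusted p under 0.05 (0.34% of all genes were then lower at that threshold). The knockout was lower in all 3 lines for 4 of the 10 genes, namely Ddx58, Dhx58, Eif2ak2 and Adar, and for 13.3% of all genes (14.3% were higher in all 3). Without line 47298 the count was 9 of 10 (26.3% of all genes), without 45555 it was 4 (20.4%) and without 45566B it was 4 (29.6%). The place of Adar in this count rests on 11.8 against 12.4 FPKM in 47298: with the libraries rescaled without short noncoding RNA genes, the count was 3 (5.75% of all genes), Ddx58, Dhx58 and Eif2ak2.

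The other fitted values were further from the threshold. On the log2 scale Eif2ak2 was at -1.06 (SE 0.45), Zbp1 at -1.52 (SE 0.95), Adar at -0.75 (SE 0.48) and Ifih1 at -0.67 (SE 0.41). Without line 45566B these were -0.44, -0.20, -0.09 and -0.24 for Eif2ak2, Zbp1, Adar and Ifih1, and Dhx58 was at -1.34. Without line 47298 they were -1.39, -2.40, -1.09 and -1.17 for Eif2ak2, Zbp1, Adar and Ifih1, and Tlr3 was at -0.81. Ifih1 then joined Ddx58 and Dhx58 under the unadjusted threshold, where 1.81% of all genes were lower. Mavs had 0.09 (95% interval -0.44 to 0.63), Tmem173 -0.16 (-0.66 to 0.34), Tlr3 -0.31 (-1.47 to 0.85) and Mb21d1 0.23 (-0.87 to 1.33). The median of the 10 genes was -0.71, against -0.01 for all genes tested. The intervals of Mavs and Tmem173 do not reach a change of 1 log2 unit, while those of Tlr3 and Mb21d1 do.

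The panel of lines set knockout 45566B and 46295 against wild type 45566B, 33373 and 33377, lines that apart from 45566B have no counterpart in the other state here. It shares the 45566B libraries with the fit over the 3 lines, so the fits are not independent. No line block was used in the panel, although 45566B is in both groups. Its libraries were grouped by the description field of their sample labels. Epcam was at 681 and 524 FPKM in the knockout libraries of the panel, against 720, 420 and 2.36 FPKM in wild type. Lines and cell state thus also varied within the panel, and their part was not tested. Here 6 of the 10 genes were lower with no overlap between the groups, against 6.43% of all 11838 genes tested (7.67% were higher with no overlap), namely Ddx58, Ifih1, Dhx58, Zbp1, Eif2ak2 and Adar, and the same 6 had an unadjusted p under 0.05 (1.33% of all genes were lower at that threshold and 0.49% higher). None passed at an adjusted p under 0.05, nor did any other gene (0%). In all, 8 of the 10 were lower and 2 higher, against 47.7% lower and 52.3% higher of all genes. Zbp1 averaged 3.99 FPKM in knockout and 75.03 FPKM in wild type, with a log2 fold change of -3.88 (SE 0.34, limma adjusted p = 0.0751). Dhx58 averaged 2.92 FPKM in knockout and 36.0 FPKM in wild type, with -3.21 (SE 0.29, limma adjusted p = 0.0751).

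By limma, Adar was at -2.01 (SE 0.30, adjusted p = 0.307), Eif2ak2 at -1.94 (SE 0.32, adjusted p = 0.410), Ddx58 at -1.84 (SE 0.33, adjusted p = 0.480) and Ifih1 at -1.47 (SE 0.29, adjusted p = 0.656). The remaining 4 genes overlapped between the groups, with Mavs at 0.04 (SE 0.21), Tmem173 at 0.11 (SE 0.25), Tlr3 at -0.20 (SE 0.88) and Mb21d1 at -0.27 (SE 0.55). The median of the 10 was -1.65, against 0.02 for all genes tested. Without 33373 and 33377, where 45566B is the only wild-type library, 9 of the 10 were lower with no overlap, a rule that 29.9% of all genes then met. Without 1 library at a time the count was 6 or 7, and 9.61% to 24.3% of all genes then met the rule.

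**Figure D3:**
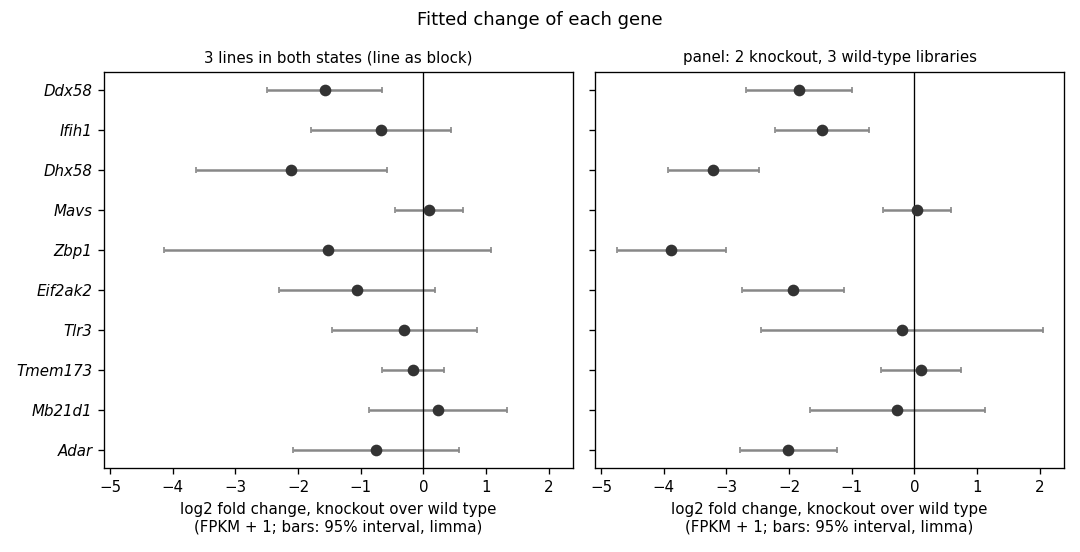
Fitted log2 fold change (knockout over wild type, FPKM + 1) of each gene with its 95% interval from limma, over the 3 lines present in both states on the left and in the panel of 2 knockout and 3 wild-type libraries on the right. In the panel 6 of the intervals lie below 0, and those of Mavs, Tlr3, Tmem173 and Mb21d1 include 0.

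With all 4 knockout and all 5 wild-type libraries in 1 fit, which shares libraries with both fits above, 0% of 12198 genes were called at an adjusted p under 0.05. At an unadjusted p under 0.05, 4 of the 10 were lower (0.959% of all genes; 0.221% were higher), namely Ddx58 at -1.66 (SE 0.50), Dhx58 at -2.53 (SE 0.71), Eif2ak2 at -1.35 (SE 0.47) and Adar at -1.21 (SE 0.47). Without 33373 and 33377 the count was 1 (0.641% of all genes), Dhx58. Without the knockout library of 45555 it was 2 (0.959% of all genes), Ddx58 and Dhx58. With the line as a random effect it was the same 4 as in the main fit, and 3.62% of all genes. Only Dhx58 of the 10 was lower with no overlap between the groups, a rule met by 0.303% of all genes (0.139% in the other direction). Without 33373 and 33377 it was again Dhx58 alone (0.871% of all genes). Without 46295 knockout it was 2 genes, Ddx58 and Dhx58 (0.617% of all genes). Without 45555 wild type it was 4 genes, Ddx58, Dhx58, Eif2ak2 and Adar (0.707% of all genes). In sign, 8 were lower and 2 higher, against 49.8% lower and 50.2% higher of all genes. Zbp1 had -2.55 (SE 1.34), or -1.29 without 33373 and 33377, and its libraries spread over 2.83 log2 units (SD, n = 5) in wild type alone, more than any other of the 10.

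Irf9 and Stat2, which carry the interferon signal to the response element, were measured alongside. Irf9 was at 1.78, 7.35, 4.03 and 3.58 FPKM in knockout libraries, against 13.3, 23.4, 43.7, 47.2 and 49.2 FPKM in wild-type libraries, and the groups did not overlap. Stat2 was at 2.15, 10.5, 4.46 and 4.82 FPKM in knockout libraries, against 8.99, 29.8, 30.8, 44.1 and 48.9 FPKM in wild-type libraries. Both were lower in the knockout of each line, also of 47298, where Ifih1, Zbp1 and Tlr3 were not. Over the 3 lines their log2 fold changes were -2.36 (SE 0.35) for Irf9 and -1.87 (SE 0.28) for Stat2, each with an adjusted p of 0.762.

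Genes around the sensors were taken from lists written from textbook knowledge, but with earlier results of these data known. None of their members passed at an adjusted p under 0.05 over the 3 lines or in the panel. The counts over the 3 lines are to be read against all genes, of which 51.4% were lower, 1.86% lower and 1.51% higher at an unadjusted p under 0.05. Of the 20 adaptors, kinases and transcription factors downstream of the sensors, 13 were lower and 7 higher over the 3 lines, 1 of them, lower, at an unadjusted p under 0.05, with a median log2 fold change of -0.08. That gene was Irf7, which amplifies interferon production, at 0.226, 2.49, 7.16 and 6.07 FPKM in knockout libraries, against 4.18, 11.6, 386, 203 and 128 FPKM in wild-type libraries. The signalling adaptor Traf5 (-0.77, SE 0.29) and the kinase-binding adaptor Azi2 (-0.27, SE 0.15) came next by p.

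Activators and inhibitors of the sensors had 11 lower and 8 higher of 19 tested, with 4 lower at an unadjusted p under 0.05 (1.86% of all genes) and a median of -0.13. Trim25, a ubiquitin ligase that activates RIG-I, was at 11.1, 12.4, 13.01 and 9.90 FPKM in knockout libraries, against 15.6, 19.9, 36.2, 32.3 and 29.6 FPKM in wild-type libraries, with no overlap. Rnf135, another RIG-I ligase, was at -0.52 (SE 0.16) on the log2 scale and Usp18, which removes ISG15 and dampens interferon receptors, at -2.60 (SE 0.83). Other nucleic acid sensors had 11 lower and 11 higher of 22 tested, with 3 lower at an unadjusted p under 0.05 (1.86% of all genes) and a median of 0.03. Those 3 were Ifi204 (-2.03, SE 0.28) and Mnda (-1.40, SE 0.24), members of a family of near-identical genes whose reads may be split between copies, and Oasl2 (-2.67, SE 0.54), of the oligoadenylate synthetase family.

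Enzymes that clear or edit nucleic acids, listed with related genes, had 8 lower and 4 higher of 12. Of these, 3 were lower and 1 higher at an unadjusted p under 0.05 (1.86% and 1.51% of all genes). Trex1, the exonuclease that removes cytosolic DNA, was at 4.88, 8.52, 3.13 and 3.09 FPKM in knockout libraries, against 7.16, 15.1, 9.94, 16.4 and 15.1 FPKM in wild-type libraries, and was lower in the knockout of each line. On the log2 scale Slfn2 was at -2.24 (SE 0.35), and Adarb2, an Adar relative, at 0.73 (SE 0.25). For the integrated stress response around PKR (8 of 14 lower, median -0.08), the death branch of ZBP1 and TLR3 (6 of 7 lower, median -0.08) and STING trafficking (7 of 14 lower, median -0.07), no member had an unadjusted p under 0.05 over the 3 lines. Ripk3, the kinase that ZBP1 acts through in necroptosis, was at 79.5, 5.40, 0.0664 and 0 FPKM in knockout libraries, against 68.98, 33.9, 0, 0.549 and 6.79 FPKM in wild-type libraries. It was below 1 FPKM in both 45566B libraries, in 46295 knockout and in 33373 wild type, the libraries with the highest Epcam. The part of cell state in these Ripk3 levels was not tested. Among the interferons and output genes, 7 of 13 were tested and 6 were lower, with a median of -0.82, led by Ifit1 (-1.66, SE 0.21), Isg15 (-2.63, SE 0.38) and Ifit3 (-1.59, SE 0.33), the 3 with an unadjusted p under 0.05. The one that was higher, named after its values were seen, was the chemokine Ccl5, at 0.120, 9.89, 204 and 128 FPKM in knockout libraries, against 0.160, 1.72, 44.6, 13.1 and 15.7 FPKM in wild-type libraries, with a log2 fold change of 1.37 (SE 0.52).

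**Figure D4:**
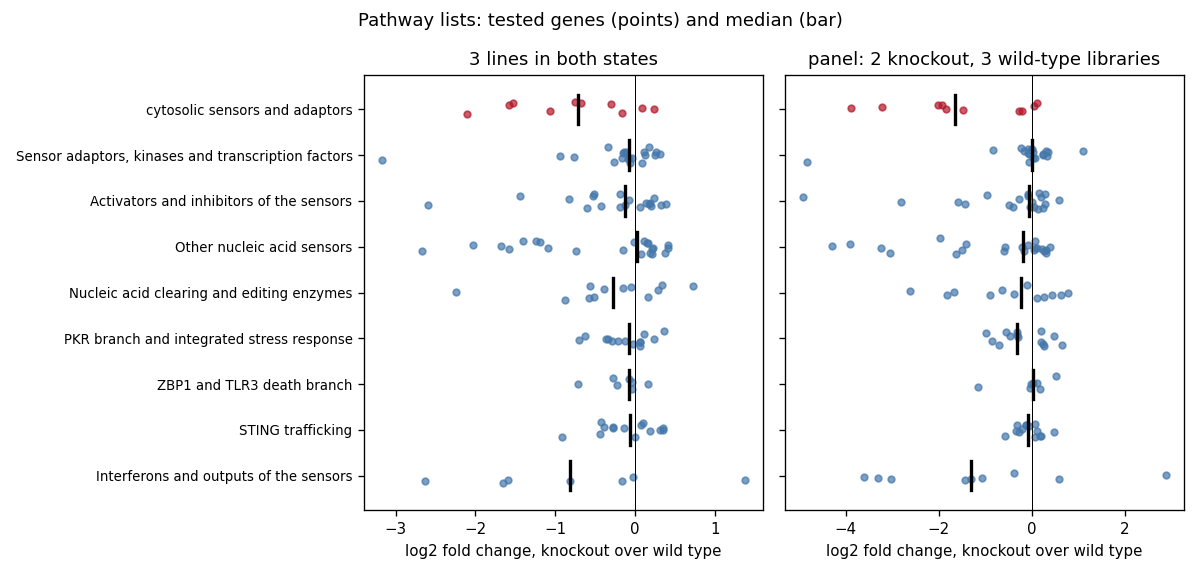
Log2 fold change (knockout over wild type, FPKM + 1) of each tested gene of the pathway lists, over the 3 lines present in both states on the left and in the panel on the right, with bars at the medians; red points are the 10 sensor and adaptor genes. Medians of the sensor and adaptor genes were -0.71 and -1.65, and those of the downstream adaptors, kinases and transcription factors were -0.08 and 0.01.

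In the panel, where 1.33% of all genes were lower and 0.49% higher at an unadjusted p under 0.05, the same lists gave medians of 0.01 for downstream adaptors and kinases (9 of 19 lower), -0.06 for activators and inhibitors (11 of 20 lower, 5 at that threshold) and -0.18 for other sensors (13 of 22 lower, 7 at that threshold). The interferons and output genes had a median of -1.29 (7 of 9 lower, with 4 lower and 1 higher at that threshold). The higher one was Ccl5, at 2.88 (SE 0.59, limma adjusted p = 0.707), with no overlap between the groups. Irf9 and Stat2 were at -3.31 (SE 0.22) and -2.88 (SE 0.29). All genes tested had a median of 0.02.

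Genes of like pattern were taken as the 3 with the highest Pearson correlation of log2(FPKM + 1) with each sensor over the 9 libraries, out of 11273 named genes, as a description of libraries that share lines. Dhx58 went most closely with Irf7 (r = 0.991), Mitd1 (0.990) and Oas1b (0.988), and Ddx58 with Trim34a (0.981), Isg15 (0.979) and Mitd1 (0.977). Zbp1 went with Bst2 (0.982), Ifi44 (0.980) and Irf7 (0.969), Eif2ak2 with B2m (0.983), Helz2 (0.975) and Mx2 (0.975), and Adar with Gbp3 (0.976), Parp12 (0.967) and Oas1b (0.967). Ifih1 went with Emc10 (0.965), Bst2 (0.965) and H2-Q4 (0.964). The list of Tlr3 was of other genes, among them Gpd1 (0.984) and Rnf144b (0.975). For Mavs the nearest were Nkain4 (0.969), Glrx2 (0.966) and Saraf (0.965). These 3, like Mavs, were highest in 47298 knockout, so their r rests largely on that library. Nkain4 was at 13.1 FPKM there and at 2.19 FPKM or less elsewhere. For Tmem173 the nearest were Rsl1 (0.960), Hsd17b11 (0.943) and Cnnm3 (0.941). For Mb21d1 they were Zik1 (0.924), Zfp961 (0.906) and Mcm6 (0.904), a subunit of the replication helicase.

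Among the 10 genes themselves, Ddx58, Ifih1, Dhx58, Zbp1, Eif2ak2 and Adar had r from 0.871 to 0.972 in their 15 pairs over the 9 libraries. They are the 6 genes that were lower with no overlap in the panel, whose libraries are among the 9. High r among genes picked in this way is a description and not separate support. Tlr3 had r from 0.570 to 0.767 with these 6, Tmem173 from 0.298 to 0.553, Mb21d1 from 0.0587 to 0.239 and Mavs from -0.336 to -0.170.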

How the data were processed

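Expression was measured by RNA sequencing in 9 libraries, from RNA reverse transcribed with oligo-dT primers and TruSeq RNA libraries, per the labels' protocols. The authors deposited FPKM per gene symbol in 2 tables, and the submitters' processing notes name mm10 as the build and, in no stated order, Cufflinks 2.2, Cuffnorm, TopHat2 2.1 and cutadapt. The sources used here do not give the annotation, the scaling option or the strandedness. The smaller table held 4 of the libraries with identical values, and all values were read from the larger one. Of 24346 rows, 4 whose date-like names were repeated were left out.

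A count test was not possible on FPKM. Relative depth is the most frequent ratio of values under 0.5 FPKM to those of 45566B wild type. Testing was limited to genes whose mean reached 1 FPKM, on log2(FPKM + 1) with limma 3.58.1 in R 4.3.3, with variances moderated towards a trend, two-sided, with Benjamini-Hochberg adjustment at 0.05 over all genes. These fold changes understate the change of low genes. The titles name the same line in both states, and deviations from the group means correlated between the libraries of a line (0.700 for 45555, 0.399 for 47298, 0.804 for 45566B), so line was a block in the fit over 3 lines. The fits were tested on simulated data.

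Alternatives were another pseudocount, filter, scaling, variance prior or block, and leaving out lines or libraries. The members and lists were chosen with earlier results of these data known. The text names the 10 genes, Jak1, Irf9 and Stat2, the 3 genes of each list with the smallest p over the 3 lines (not all are reported here), and the 3 genes most like each sensor, with a withheld item left out. Promoter sequences are from RefSeq (GRCm38.p6), used for 7 of 10 genes, matched by symbol or synonym. Python 3.11.15 and matplotlib 3.10.9 were used for the rest.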

Additional observations from a re-analysis of the deposited data

Results flagged for a closer look

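Mb21d1 in the knockout library of 45555, at 4.51 FPKM, lay far above the other 3 knockout libraries (2.69 to 2.86 FPKM), a gap wide for 4 libraries; chance alone marks about 1 group in 20 in this way, and 20 groups were looked at. For 6 genes the sign of the difference between knockout and wild type was not the same in the 3 lines, and these differences between lines were not tested, since each line has 1 library per state. On the log2(FPKM + 1) scale, the knockout of 47298 was higher for Ifih1 (0.32), Zbp1 (0.24), Tlr3 (0.70) and Tmem173 (0.072), each of which was lower in the knockout of 45555 and 45566B. Mavs was lower in the knockout of 45555 (-0.13) and of 45566B (-0.08) and higher in that of 47298 (0.48). Mb21d1 was lower in the knockout of 45566B (-0.77) and higher in that of 45555 (0.93) and 47298 (0.54). The knockout and wild-type cultures of 47298 also differed in cell state, and its part in these signs was not tested.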

How the results depend on the processing

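None of the 10 genes passed at an adjusted p under 0.05 under any alternative, the lowest being 0.0544 for Dhx58 and Zbp1 in the panel with a filter at a mean of 5 FPKM. Ddx58, Ifih1, Dhx58, Zbp1, Eif2ak2 and Adar had negative values under every alternative of the 3 fits, which reuse the same libraries. The share of all genes that kept the same sign was not counted. Over the 3 lines without 45566B, these values ran from -0.09 (Adar), -0.20 (Zbp1) and -0.24 (Ifih1) to -1.34 (Dhx58). The count of called genes stayed at 0 without the line block and with the line as a random effect (replicate block) over all 9 libraries. It was 4 in the panel with a pseudocount of 0.1 FPKM (Irf9 and 3 short noncoding RNA genes). Leaving out 1 line at a time it was 0 to 6 over the 3 lines, and leaving out 1 library at a time 0 to 1 over all 9 libraries, the called genes all being short noncoding RNA genes; the cause was not tested. The count of the 10 genes lower in every line was 4 to 9 when 1 line was left out (20.4% to 29.6% of all genes). This alternative was chosen after seeing the data, as were those of the next counts. The count of the 10 genes lower at an unadjusted p under 0.05 was 0 over the 3 lines without the line block (0.34% of all genes). Over all 9 libraries it was 2 to 6 with 1 library left out (0.68% to 2.11% of all genes) and 1 without 33373 and 33377 (0.641%). The count with no overlap was 1 to 4 with 1 library left out (0.396% to 1.13% of all genes). Rescaling without short noncoding RNA genes moved the median of all genes by over 0.1, to 0.16 over the 3 lines (31.1% of genes lower, against 51.4% as reported) and to 0.11 over all 9 libraries (34.0% against 49.8%), and Tmem173 then had 0.034 and 0.069. Without 33373 and 33377, Tmem173 had -0.16 in the panel and Tlr3 had 0.16 over all 9 libraries. Leaving out 1 line at a time, the log2 fold change over the 3 lines ran from -0.10 to 0.20 for Mavs, -0.12 to 0.73 for Mb21d1, -0.81 to 0.17 for Tlr3 and -0.28 to 0.0031 for Tmem173. Leaving out 1 library at a time, it ran in the panel from -0.037 to 0.13 for Mavs and -1.06 to 0.24 for Tlr3 (above 0 at 0.050, 0.20 and 0.24). Over all 9 libraries it ran from -0.050 to 0.21 for Mavs, -0.0093 to 0.36 for Mb21d1, -0.80 to 0.42 for Tlr3 (above 0 at 0.19, 0.21 and 0.42) and -0.22 to 0.23 for Tmem173 (above 0 at 0.020, 0.038 and 0.23). The direction of these 4 genes is therefore not settled by these libraries. Depth in fragments is unknown, which limits values under 1 FPKM, such as Zbp1 in 45555.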
